A study of Mus musculus with 6 samples.

Results

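The mitochondrial ribosomal protein genes were compared between the small intestine of sham mice and of mice after intestinal ischemia/reperfusion (I/R). The genes were taken as every symbol that begins with Mrpl or Mrps followed by a digit. This rule on symbols uses no measured value, but the group was chosen with earlier results of these data known. The mouse annotation GENCODE M21 holds 83 such genes, of which 78 are protein-coding and 5 are processed pseudogenes. All 78 protein-coding genes were listed in the deposited table and are among the 12006 genes tested, and 0 of the pseudogenes were listed. The 6 RNA-seq libraries came from small intestine of C57BL/6 mice that were 8 weeks old, 3 from sham mice (replicates 1, 3 and 5) and 3 from I/R mice (replicates 6, 7 and 9), and the labels name no engineered allele in either group. Per the study's methods, the superior mesenteric artery was closed and reopened in the I/R mice, and sham mice had the same surgery without closing the artery. Separate animals are not named for the samples, so the p-values speak only of the spread among them.

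The mitochondrial ribosome makes the few inner membrane proteins that the mitochondrial genome encodes, which are core subunits of the respiratory chain and of ATP synthase. Its RNAs come from the mitochondrial genome, but its proteins are encoded in the nucleus, made in the cytosol and imported. The small subunit binds the messenger RNA and decodes it, and the large subunit joins the amino acids and releases the chain through a tunnel at the inner membrane. Part of the proteins descend from the bacterial ribosome, and the rest were gained in the mitochondrion. Intestinal epithelium is rich in mitochondria, and its dividing crypt cells make new ones continually.

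Of the 78 members, 51 belong to the large subunit and 26 to the small subunit, with Mrps30 and Mrps18a counted in the large subunit, where mammalian structures place their proteins. The protein of the remaining member, Mrps36, is now known as a component of the alpha-ketoglutarate dehydrogenase complex and not of the ribosome. A bacterial counterpart is known for 45 members, and 32 are specific to mitochondria. The members lie on 17 chromosomes, and chromosome 11 holds the most, 11. FPKM are fragments scaled to transcript length and to sequencing depth, and the values of a gene's listed transcripts were summed. The mean over the 6 libraries ran from 2.57 to 78.2 FPKM over the members with a median of 16.6 FPKM, against a median of 6.39 FPKM for all tested genes.

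Promoter windows of RefSeq (GRCm38.p6) from 250 bases before to 50 bases after the transcript start were matched by symbol to 69 of the 78 members, and 9 had no entry. They were searched on both strands for the core of ETS family sites (CCGGAAG), which the regulator GABP (also called NRF-2) binds, for the site of nuclear respiratory factor 1 (GCGCATGCG) and for that of YY1 (AAGATGGC). These factors are known activators of nuclear genes for mitochondrial proteins. The ETS core was found in 26 of the 69 members, or 37.7%, against 20.1% of tested genes with a window and 9.93% of all genes with one. The YY1 letters were found in 12 members, or 17.4%, against 5.34% and 3.19%, and the NRF1 letters in 7 members, or 10.1%, against 4.1% and 1.95%. At least 1 of these 3 motifs stood in 38 members, or 55.1%, against 27.1% of tested genes. The letters TATAAA, the core of the TATA box, stood in 5 members, or 7.25%, against 9.24% of tested genes and 15.7% of all genes. A match of letters is a description of the window and shows no binding. The motifs were counted separately, so that overlapping matches would each be counted.

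The windows of 4 members are given below 5′ to 3′ on the gene's strand, with matched motifs in capitals, in the reverse complement where the match is on the other strand. Mrps11 (chr7:78782881-78783180, + strand) is shown because the window also holds the start of Mrpl46, which is read the other way. Its YY1 match lies beyond the end of the window of Mrpl46 itself. Mrps18b (chr17:35916391-35916690, - strand) carries an NRF1 and an ETS match, Mrps12 (chr7:28741772-28742071, - strand) a YY1 and an ETS match, and Mrpl3 (chr9:105053018-105053317, + strand) an ETS match alone.
Mrps11: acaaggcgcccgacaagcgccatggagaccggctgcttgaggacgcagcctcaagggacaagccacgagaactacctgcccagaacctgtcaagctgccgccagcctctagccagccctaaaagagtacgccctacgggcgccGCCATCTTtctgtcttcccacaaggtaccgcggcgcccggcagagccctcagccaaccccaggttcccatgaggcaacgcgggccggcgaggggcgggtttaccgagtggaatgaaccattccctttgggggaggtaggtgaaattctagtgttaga
Mrps18b: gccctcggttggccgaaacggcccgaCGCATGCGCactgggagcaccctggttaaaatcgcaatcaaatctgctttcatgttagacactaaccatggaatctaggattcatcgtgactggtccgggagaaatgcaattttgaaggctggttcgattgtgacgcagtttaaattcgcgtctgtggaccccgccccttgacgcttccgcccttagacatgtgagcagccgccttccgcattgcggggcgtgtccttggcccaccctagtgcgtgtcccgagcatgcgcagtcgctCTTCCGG
Mrps12: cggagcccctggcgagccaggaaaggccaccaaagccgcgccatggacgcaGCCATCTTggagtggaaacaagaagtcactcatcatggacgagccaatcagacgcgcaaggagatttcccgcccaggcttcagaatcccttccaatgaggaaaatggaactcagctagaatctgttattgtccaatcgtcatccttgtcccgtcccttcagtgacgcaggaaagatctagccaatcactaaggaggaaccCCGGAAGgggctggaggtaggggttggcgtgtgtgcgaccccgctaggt
Mrpl3: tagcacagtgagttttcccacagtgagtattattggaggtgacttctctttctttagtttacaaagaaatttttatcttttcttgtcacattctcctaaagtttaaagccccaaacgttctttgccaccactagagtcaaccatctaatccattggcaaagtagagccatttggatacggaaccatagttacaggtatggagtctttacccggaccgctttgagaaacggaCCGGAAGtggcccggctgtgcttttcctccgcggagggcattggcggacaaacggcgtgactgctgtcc

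RNAs of the mitochondrial ribosomal proteins were modestly higher in the I/R libraries as a group, and no single member passed the adjusted threshold. The median log2 fold change (I/R minus sham, on log2(FPKM + 1)) was 0.31 over the 78 members, with quartiles of 0.11 and 0.46 and a range from -1.64 to 2.65, against a median of 0.12 over all tested genes. The mean was higher in I/R for 63 members (80.8%) and lower for 15, where 62.6% of all tested genes were higher. In 21 members (26.9%) all 3 I/R values lay above all 3 sham values, against 10.6% of all tested genes, and in 0 members did they all lie below, against 5.89% of all tested genes. By limma with Benjamini-Hochberg adjustment, 0 members had an adjusted p below 0.05, and the lowest was 0.484. Over all genes 4 passed, or 0.0333%. At an unadjusted limma p below 0.05, 7 members (8.97%) were higher and 0 lower, against 5.56% and 3.38% of all tested genes.

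**Figure D1:**
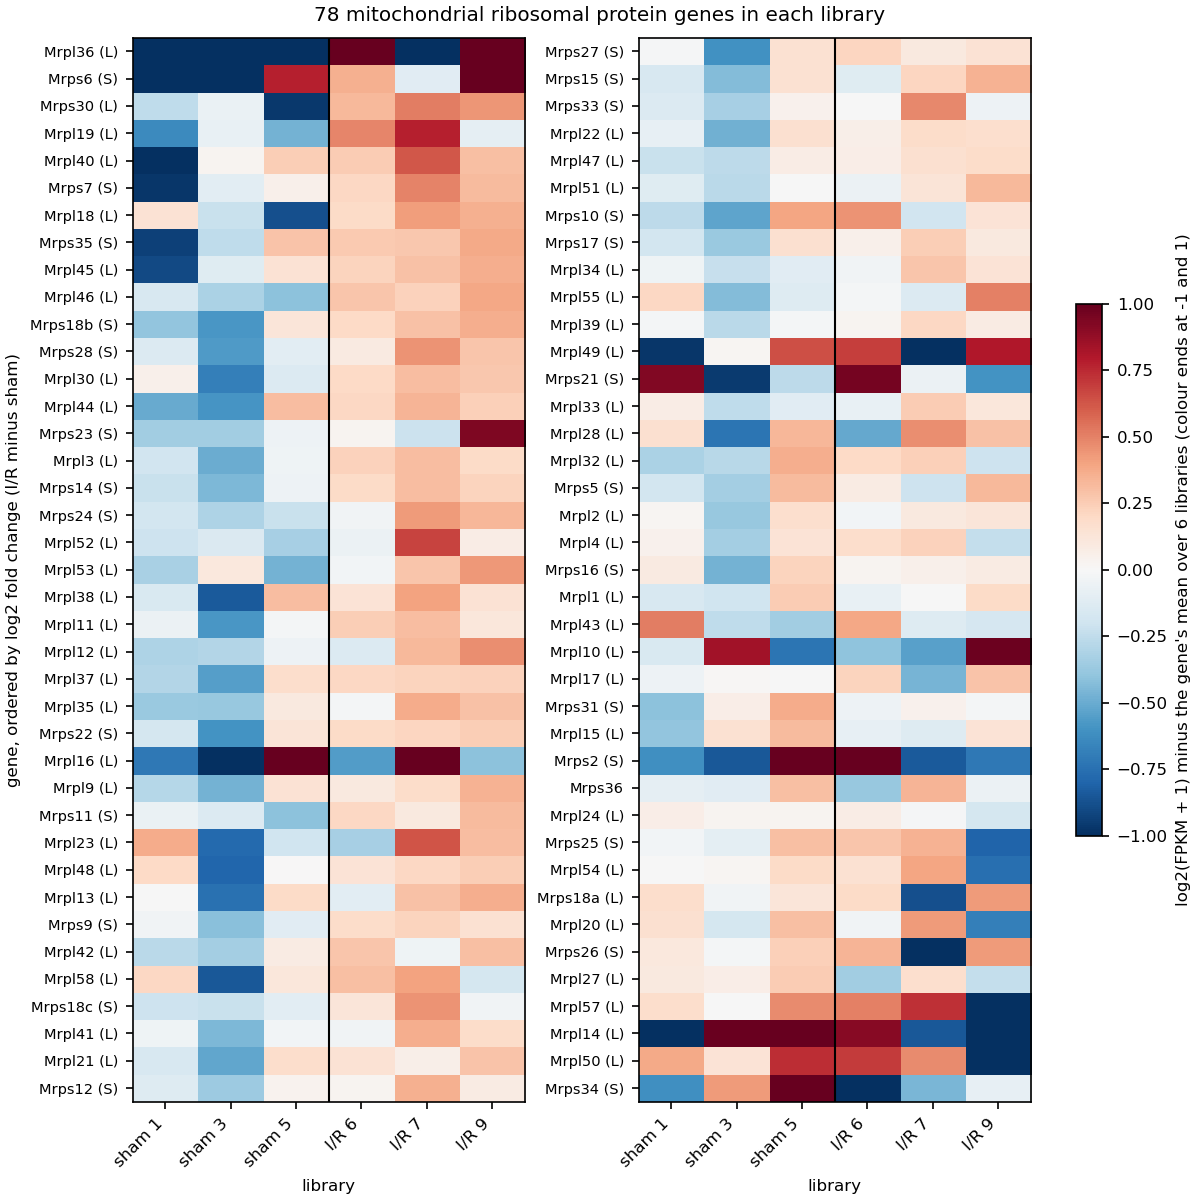
Each row is 1 of the 78 genes (L, large subunit; S, small subunit), each column a library, and colour gives log2(FPKM + 1) minus the gene's mean over the 6 libraries, cut at -1 and 1. Rows run from the highest to the lowest log2 fold change, and 64 of the 78 genes are lowest in a sham library, 44 of them in sham 3, while the rows at the top and the bottom vary within a group.

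The level of the group was not uniform within the sham mice. The summed FPKM of the members was 1498, 1308 and 1684 in sham replicates 1, 3 and 5 and 1749, 1909 and 1787 in I/R replicates 6, 7 and 9, so the sums did not overlap. The median of the members on the log2(FPKM + 1) scale was 3.84, 3.73 and 4.25 in sham and 4.19, 4.10 and 4.40 in I/R, and by this measure sham replicate 5 lay above I/R replicates 6 and 7. Sham replicate 3 gave the lowest value of 44 members, where it gave the lowest value of 34.3% of all tested genes. I/R replicate 7 gave the highest value of 35 members, I/R replicate 9 of 27 and I/R replicate 6 of 4.

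Scaling between libraries removed a large part of the separation. The FPKM of the libraries were divided by median-ratio factors, which were 1.066, 0.837 and 0.965 in sham and 1.129, 1.004 and 1.025 in I/R. The median log2 fold change of the members then became 0.18, against 0.01 for all genes, and 56 members (71.8%) were higher, against 51.0% of all genes. All 3 I/R values lay above all sham values in 6 members (7.69%), a share near the 7.35% of all genes. These 6 were Mrpl3, Mrpl11, Mrpl30, Mrpl46, Mrps9 and Mrps14. After scaling, the median deviation of the members from their own means was -0.24, -0.08 and 0.18 in sham and -0.02, 0.23 and 0.16 in I/R, so that sham 5 lay above 2 of the I/R libraries. Without sham replicate 3 and without scaling, the median of the members was 0.15 against 0.05 for all genes, and 57 of the 78 were higher.

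**Figure D2:**
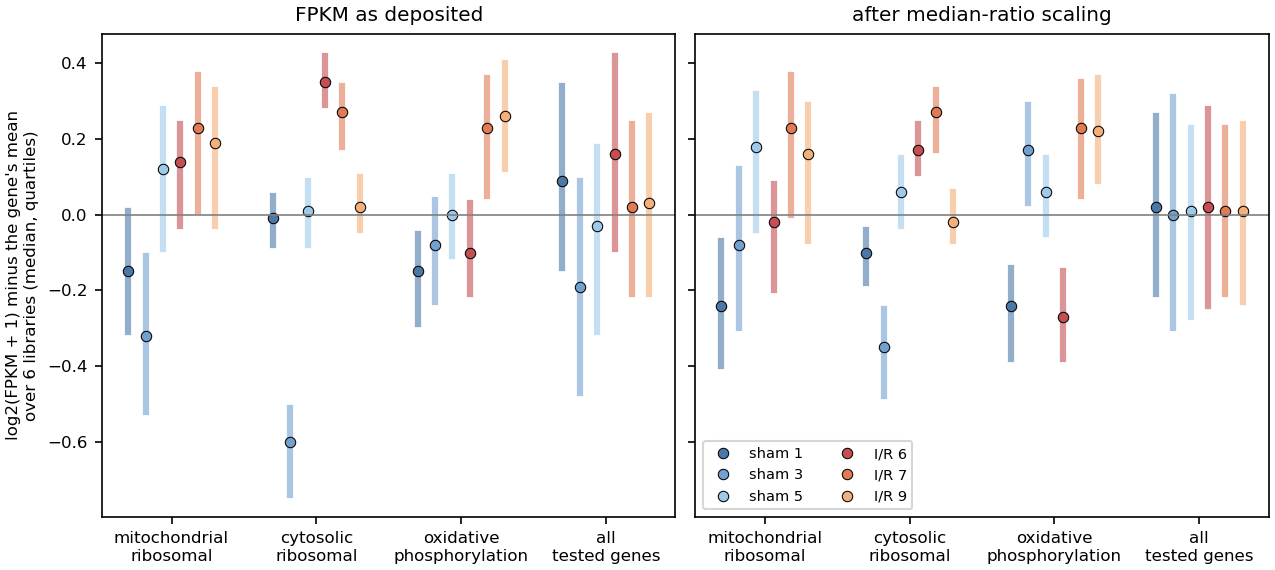
Points give the median, and bars the quartiles, of log2(FPKM + 1) minus each gene's mean over the 6 libraries, for 78 mitochondrial ribosomal, 81 cytosolic ribosomal and 78 nuclear-encoded oxidative phosphorylation genes and all tested genes, with the deposited FPKM on the left and after median-ratio scaling on the right. Sham 3 is the lowest library of both ribosomal groups on the left, at -0.32 and -0.60, and on the right sham 5 lies at 0.18 among the I/R libraries for the mitochondrial group.

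Both subunits leaned the same way. The large subunit had a median log2 fold change of 0.33, with 42 of 51 genes higher and 12 with all I/R values above sham, and the small subunit had 0.31, with 21 of 26 higher and 9 apart. These are 23.5% and 34.6% apart, against the 10.6% of all tested genes. After median-ratio scaling 4 of the 51 and 2 of the 26 stood apart, against 7.35% of all genes, and the medians were 0.19 and 0.18. Summed FPKM of the large subunit was 1090, 983.3 and 1208 in sham and 1249, 1402 and 1291 in I/R, and that of the small subunit was 381.6, 298.3 and 440.5 in sham and 477.5, 470.5 and 469.0 in I/R. Members with a bacterial counterpart had a median of 0.29 (39 of 45 higher, 12 apart) and the mitochondria-specific ones 0.35 (24 of 32 higher, 9 apart). Among all tested genes 62.6% were higher. After median-ratio scaling the medians of this split were 0.15 and 0.21, with 33 and 23 higher and 5 and 1 apart. For all genes these shares were then 51.0% and 7.35%. The Spearman correlation of the log2 fold change across the 78 genes was 0.04 with the length of the main transcript, which ran from 418 to 7300 bases, and 0.02 with the mean FPKM, as a description in which all genes share the same libraries.

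Among the members whose groups did not overlap, the large subunit protein gene Mrpl46, specific to mitochondria, had the smallest p. Sham libraries gave 9.84, 8.71 and 8.11 FPKM and I/R libraries 13.7, 13.2 and 14.8 FPKM, a difference of 0.59 ± 0.17 (SE) on the log2 scale (limma adjusted p = 0.484). The sham values lay close together, and the lowest I/R value stood well clear of them. Mrps11 encodes a small subunit protein of the platform. By the starts in GENCODE M21, it begins 30 bases from Mrpl46 on the opposite strand of chromosome 7. Its sham libraries gave 7.80, 7.38 and 5.92 FPKM and its I/R libraries 9.62, 8.85 and 10.5 FPKM, a difference of 0.41 ± 0.19 (SE) on the log2 scale (limma adjusted p = 0.590). Both genes of this pair were thus higher in every I/R library than in any sham library, although the pair was singled out after its values were seen, and Mrps11 no longer stood apart after median-ratio scaling.

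Mrps30, a large subunit protein despite its symbol, had the largest fold of the genes that stood apart. It was at 12.8, 14.7 and 7.39 FPKM in sham and 19.6, 22.4 and 21.3 FPKM in I/R, or 0.85 ± 0.27 (SE) on the log2 scale (limma adjusted p = 0.505). The I/R values were tight, and sham replicate 5 was low. Mrpl3, whose protein lies near the peptidyl transferase centre, was at 5.12, 3.96 and 5.80 FPKM in sham and 7.21, 7.69 and 7.02 in I/R (log2 fold change 0.49 ± 0.20). Mrpl30 was at 56.3, 33.5 and 49.5 FPKM in sham and 62.7, 67.6 and 65.7 in I/R (0.52 ± 0.22). In both, sham replicate 3 was the lowest library and the I/R libraries differed little.

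In the small subunit, Mrps28 was at 19.4, 14.2 and 19.9 FPKM in sham and 22.9, 29.7 and 26.2 in I/R, a log2 fold change of 0.54 ± 0.20. Mrps24, whose bacterial counterpart lines the entry of the messenger RNA, was at 18.6, 17.0 and 18.1 FPKM in sham and 20.7, 28.9 and 27.0 in I/R (0.48 ± 0.18). Sham values of Mrps24 were nearly equal, and I/R replicate 6 was only just above them. Mrps18b was at 19.3, 16.8 and 28.1 FPKM in sham and 29.6, 31.7 and 33.4 in I/R (0.57 ± 0.22), with sham replicate 5 close below the I/R libraries. Mrps14 was at 7.49, 6.27 and 8.59 FPKM in sham and 10.3, 11.3 and 10.6 in I/R (0.48 ± 0.19). These 4 genes were higher at an unadjusted p below 0.05, and all had a limma adjusted p of 0.541 or 0.543. The log2 fold changes of the 21 genes that stood apart ran from 0.21 to 0.85.

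**Figure D3:**
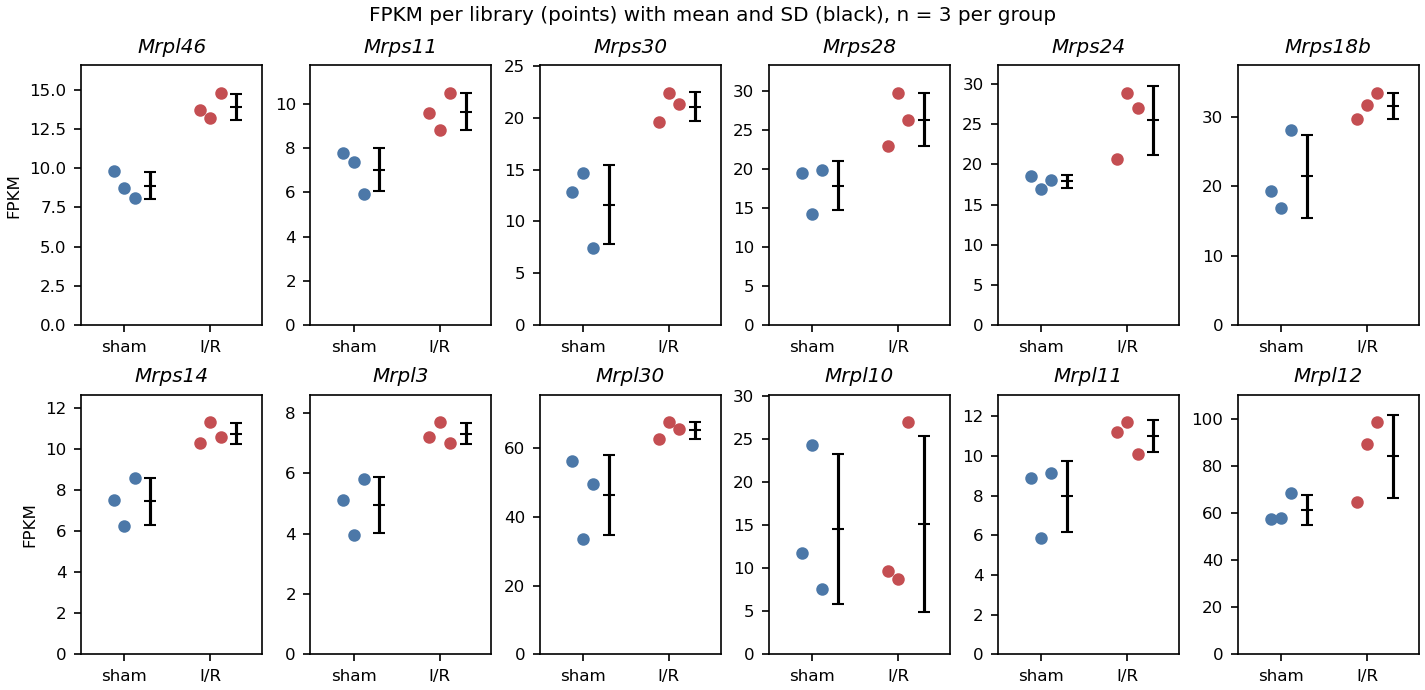
Points are the FPKM of single libraries (3 sham in blue, 3 I/R in red, in replicate order), and black bars give the mean and SD; each axis starts at 0 with its own scale. Mrpl46, for example, lies between 8.11 and 9.84 FPKM in sham and between 13.2 and 14.8 FPKM in I/R, while the groups of Mrpl10 and Mrpl12 overlap.

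The stalk of the large subunit, which recruits translation factors, is built from Mrpl10, Mrpl11 and Mrpl12. Mrpl12, which carries the flexible arm of the stalk and is also known to bind the mitochondrial RNA polymerase, was at 57.4, 57.8 and 68.6 FPKM in sham and 64.6, 89.3 and 98.6 in I/R (log2 fold change 0.44 ± 0.21), with I/R replicate 6 inside the sham range. Mrpl11 was at 8.87, 5.87 and 9.13 FPKM in sham and 11.2, 11.7 and 10.1 in I/R (0.44 ± 0.22), without overlap. Mrpl10 was at 11.7, 24.3 and 7.52 FPKM in sham and 9.66, 8.71 and 26.9 in I/R. Its fold change of 0.03 ± 0.54 rested on 1 high library in each group and became -0.11 after median-ratio scaling.

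Around the exit of the tunnel, Mrpl45 tethers the ribosome to the inner membrane. It was at 6.51, 11.9 and 14.5 FPKM in sham and 15.4, 16.2 and 17.1 in I/R (log2 fold change 0.59 ± 0.29), so the groups did not overlap and sham replicate 1 was low. The other genes of the exit, Mrpl22, Mrpl23 and Mrpl47, had log2 fold changes of 0.27, 0.40 and 0.27 with overlapping groups. Mrpl24 was nearly level, at 67.4, 65.4 and 65.5 FPKM in sham and 67.9, 63.7 and 56.7 in I/R (-0.08 ± 0.15). Its value is a sum of 5 listed transcripts, and the most abundant of them alone was at 12.6, 16.1 and 9.83 FPKM in sham and 20.0, 24.2 and 19.0 in I/R, a log2 fold change of 0.69. Among transcripts of 1 gene the division of reads is an estimate.

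The 3 members of highest level were all mitochondria-specific or stalk proteins of the large subunit, namely Mrpl54, Mrpl12 and Mrpl52. Mrpl54 was at 75.8, 76.9 and 86.9 FPKM in sham and 84.6, 100.5 and 44.7 in I/R, with a log2 fold change of -0.14 ± 0.31 that became 0.21 without I/R replicate 9. Mrpl52 was at 59.9, 62.6 and 54.9 FPKM in sham and 66.6, 111.8 and 73.0 in I/R (0.46 ± 0.23), and its groups stood apart. Mrps36, not a ribosomal protein despite its symbol, was at 26.9, 26.5 and 35.6 FPKM in sham and 21.9, 36.5 and 27.5 in I/R (-0.07 ± 0.24).

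The widest ranges belonged to genes that jumped between libraries of the same group. A range of 4-fold or more over the 6 libraries, or a value of 0, was found in 11 members (14.1%), against 20.4% of the 8760 tested genes with at least the mean level of the lowest member. In 10 of the 11 the range was as wide within a group, and 10 had 1 listed transcript. These genes were described after their values were seen, apart from Mrps34, which a rule on zeros names. Mrpl36, a small protein with a bacterial counterpart, was at 0.296, 0.762 and 0.807 FPKM in sham and 23.6, 0.279 and 31.5 in I/R, so the highest log2 fold change of all members, 2.65 ± 1.18 (limma adjusted p = 0.576), came from 2 of 3 I/R libraries. Mrps34, which stabilises the small subunit, had the lowest, -1.64 ± 0.89 (limma adjusted p = 0.624). It was at 1.48, 4.10 and 22.7 FPKM in sham, was listed at 0 in I/R replicate 6 and reached 1.76 and 2.58 FPKM in the other I/R libraries. Sham replicate 5 alone was high.

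Others of this kind took 2 levels. Mrps2 was at 1.13, 0.814 and 8.65 FPKM in sham and 7.99, 0.827 and 0.986 in I/R, with 1 library of each group high. Mrpl16 was at 3.66, 2.33 and 17.9 FPKM in sham and 4.20, 22.0 and 4.78 in I/R, again with 1 high library in each. Mrpl14 was at 6.65, 33.4 and 37.1 FPKM in sham and 31.5, 8.63 and 7.65 in I/R. Mrpl50 was between 12.6 and 19.6 FPKM in 5 libraries and at 1.30 FPKM in I/R replicate 9, and Mrpl57 was between 9.07 and 15.8 FPKM in 5 libraries and at 1.75 FPKM in the same one. In these genes the fold change depends on which libraries hold the high level. Without the 11 genes, the median log2 fold change of the other 67 was 0.33, 58 were higher in I/R and 20 had all I/R values above sham. Among all tested genes, with none left out, 62.6% were higher and 10.6% had all I/R values above sham. These counts are without scaling, and after median-ratio scaling 7.69% of the 78 members stood apart, against 7.35% of all genes.

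**Figure D4:**
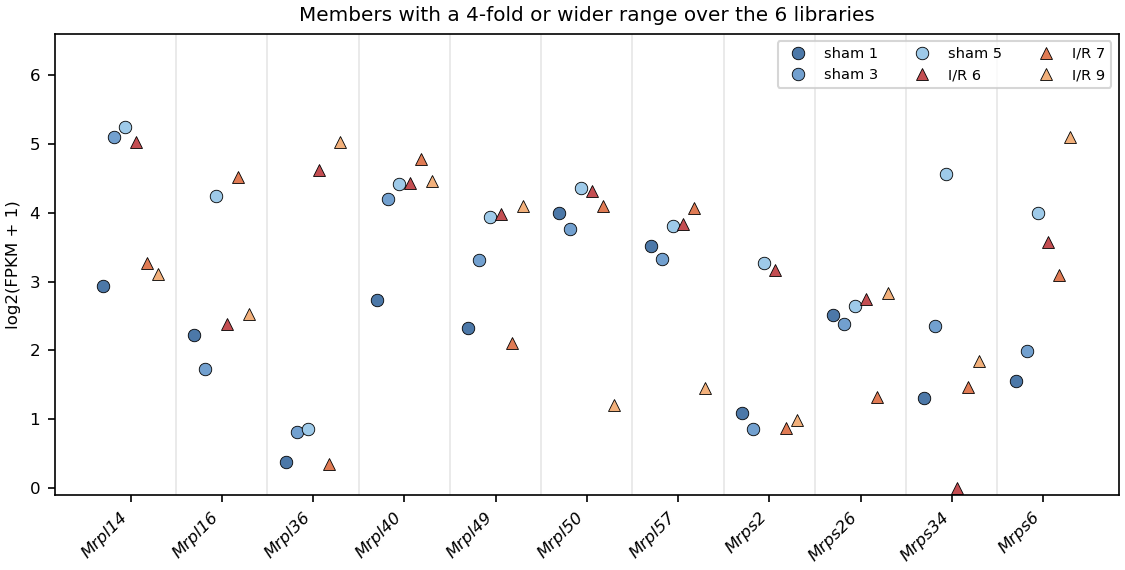
Log2(FPKM + 1) of the 11 members with a range of 4-fold or more, or a 0, over the 6 libraries (circles, sham; triangles, I/R). High and low values occur in both groups for Mrpl14, Mrpl16, Mrpl49 and Mrps2, the last with sham 5 and I/R 6 high, and Mrpl50 and Mrpl57 are low in I/R 9 alone.

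Several of these genes share bases with a neighbour, and whether strand was used to assign reads is not given in the sources used here. Mrpl49 lies on chromosome 19 (6053622 to 6057785, mm10, - strand), and its last 91 bases are also the last bases of Syvn1 on the + strand, the gene of the E3 ubiquitin ligase HRD1 that the study is about. Mrpl49 was at 4.00, 8.91 and 14.3 FPKM in sham and 14.8, 3.32 and 16.1 in I/R (log2 fold change 0.21 ± 0.64). Syvn1 was at 21.2, 12.8 and 7.35 FPKM in sham and 11.9, 10.3 and 11.4 in I/R. In sham Syvn1 was high where Mrpl49 was low, and in I/R it was nearly level while Mrpl49 was not. Mrpl36 overlaps Ndufs6 on the other strand, whose sham libraries ranged from 63.8 to 90.9 FPKM and I/R libraries from 80.8 to 96.5 FPKM, and Mrps34 overlaps Nme3 on the same strand and Mapk8ip3 on the other. The part of read sharing in these values was not tested.

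A head-to-head arrangement, in which a gene on the opposite strand starts within 1000 bases, was found for 18 members in 17 pairs. This is 23.1% of the members, against 8.81% of the 11951 tested genes with a mapped start. Mrpl46 and Mrps11 formed the 1 pair of 2 members. The other 16 partners included Tcp1, a subunit of the cytosolic chaperonin, 37 bases from Mrpl18, Twnk, the mitochondrial DNA helicase, beside Mrpl43, and Sars2, the mitochondrial seryl-tRNA synthetase, beside Mrps12. Of these 16 partners, 12 were higher in I/R with a median log2 fold change of 0.23, and 0 had all 3 I/R values above or below sham. Over all tested genes 62.6% were higher with a median of 0.12, and 10.6% lay all above and 5.89% all below. By limma 0 partners had an adjusted p below 0.05. Mrpl18 was at 43.4, 33.3 and 20.8 FPKM in sham and 44.7, 52.5 and 50.2 in I/R, and Tcp1 at 48.1, 37.3 and 54.8 FPKM in sham and 61.6, 51.0 and 65.8 in I/R. The groups of Mrpl18 stood apart and those of Tcp1 overlapped, with sham replicate 5 low in Mrpl18 alone.

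**Figure D5:**
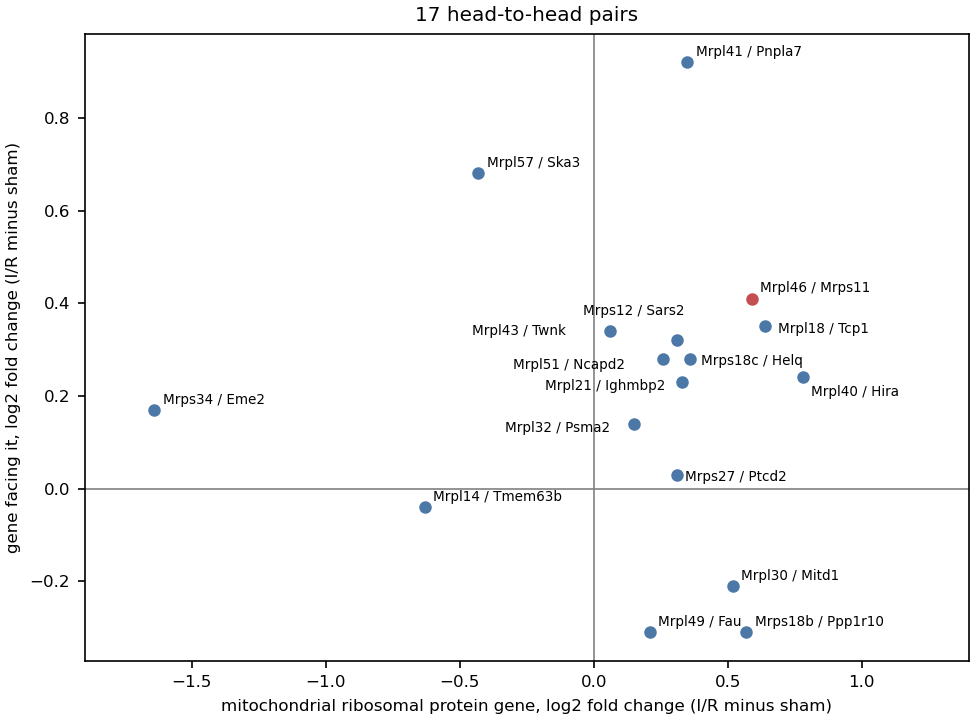
Log2 fold change (I/R minus sham) of a mitochondrial ribosomal protein gene against that of the gene that starts within 1000 bases on the opposite strand, for 17 pairs; red marks the pair of 2 members. Mrpl46 and Mrps11 lie at 0.59 and 0.41, and Mrps18b and Mrpl30 face genes with a lower mean in I/R.

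Motif matches occurred both in the members that stood apart and in the rest. Of the 20 members with all I/R values above sham and a promoter window, 7 had the ETS core, 4 the YY1 letters and 2 the NRF1 letters. Of the other 49 members with a window the counts were 19, 8 and 5. Among 10 regulators of mitochondrial gene expression 6 (60.0%) were higher in I/R, against 62.6% of all tested genes, with 0 past the adjusted threshold by limma. Their median log2 fold change was 0.15, against 0.12 for all genes, and became 0.02 after median-ratio scaling and 0.08 without sham replicate 3. Pprc1, a coactivator of the PGC-1 family, was at 2.88, 1.33 and 3.20 FPKM in sham and 5.43, 3.48 and 4.04 in I/R (0.64 ± 0.30), and Gabpb1, the partner of the ETS factor GABPA, was at 5.05, 5.05 and 4.61 FPKM in sham and 6.61, 9.37 and 5.52 in I/R (0.44 ± 0.23). Neither pair of groups overlapped. In the list 3 of 10 (30.0%) had all I/R values above sham, against 10.6% of all tested genes. After median-ratio scaling 1 did, where 7.35% of all genes did. For factors whose sites were searched, the log2 fold changes were 0.15 for Gabpa, 0.30 for Nrf1 and -0.47 for Yy1. The groups of Gabpa stood apart, and those of Nrf1 and Yy1 overlapped. Ppargc1a, the coactivator PGC-1alpha, had a lower mean in I/R (-0.73 ± 0.38) and Myc a higher one (0.68 ± 0.41), both with overlapping groups.

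The mitochondrial ribosomal proteins whose symbols lie outside the naming rule showed the same direction in the same 6 libraries. Here 5 of 5 were higher, against 62.6% of all tested genes, with a median log2 fold change of 0.50. The groups of 2 (40.0%) stood apart, against 10.6% of all tested genes. After median-ratio scaling 5 were higher, the median was 0.37 and 1 stood apart, where 7.35% of all genes did. Without sham replicate 3 the median was 0.33, again with 5 higher. Dap3, a GTP-binding protein of the small subunit, was at 18.0, 12.5 and 16.4 FPKM in sham and 22.6, 25.2 and 23.7 in I/R (0.59 ± 0.19, limma adjusted p = 0.516). Gadd45gip1 of the large subunit was at 6.76, 5.39 and 9.30 FPKM in sham and 10.3, 9.33 and 11.3 in I/R (0.50 ± 0.23), also without overlap. Chchd1, Ptcd3 and Aurkaip1 had log2 fold changes of 0.82, 0.42 and 0.17 with overlapping groups.

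The factors that serve the mitochondrial ribosome in translation had no stable direction as a list. Of 12 translation factors 8 (66.7%) were higher, against 62.6% of all tested genes, and 0 passed the adjusted threshold by limma. Their median log2 fold change was 0.18, became 0.04 after median-ratio scaling and turned to -0.03 without sham replicate 3, where 5 of the 12 were higher. Mtif3, the initiation factor that keeps the subunits apart, was at 3.22, 2.98 and 4.86 FPKM in sham and 7.64, 8.74 and 7.22 in I/R, a difference of 0.94 ± 0.23 on the log2 scale (limma adjusted p = 0.441). Gfm1, the elongation factor for translocation, was at 6.94, 4.88 and 8.99 FPKM in sham and 9.97, 9.71 and 14.1 in I/R (0.64 ± 0.27). Both stood apart, as 2 of the 12 (16.7%), against 10.6% of all tested genes. After median-ratio scaling 1 of the 12 did, where 7.35% of all genes did. Tufm, the elongation factor that delivers the transfer RNAs, ranged from 20.7 to 43.3 FPKM over sham and from 25.5 to 36.9 FPKM over I/R libraries.

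Of the 20 assembly factors listed, 19 were tested, 15 (78.9%) were higher and the median was 0.22, again with 0 past the threshold. The median became 0.09 after median-ratio scaling, with 12 higher, and 0.08 without sham replicate 3, with 11 higher. The RNA methyltransferase Mrm1 had a lower mean in I/R, at 7.11, 7.57 and 5.90 FPKM in sham and 4.36, 4.25 and 3.66 in I/R (-0.62 ± 0.20, limma adjusted p = 0.516). Fastkd2, which binds the large ribosomal RNA, was at 2.02, 1.26 and 2.11 FPKM in sham and 3.31, 2.95 and 4.07 in I/R (0.68 ± 0.24). In 14 genes of mitochondrial transcription and RNA handling, 11 (78.6%) were higher with a median of 0.28, which became 0.14 after median-ratio scaling, with 8 higher, and 0.15 without sham replicate 3, with 9 higher. Polg, the mitochondrial DNA polymerase, was at 1.64, 1.38 and 1.72 FPKM in sham and 2.95, 2.84 and 2.65 in I/R (0.56 ± 0.20), and Fastk was at 15.1, 18.6 and 16.2 FPKM in sham and 9.76, 11.7 and 10.1 in I/R (-0.61 ± 0.18, limma adjusted p = 0.484). These 4 genes had groups that did not overlap. Of the 19 assembly factors 2 (10.5%) lay all above sham and 1 (5.26%) all below, near the 10.6% and 5.89% of all tested genes. Of the 14 genes of transcription and RNA handling 3 (21.4%) lay all above and 2 (14.3%) all below. After median-ratio scaling 1 and 2 genes of the 2 lists lay all above, where 7.35% of all genes did. Of 15 genes encoded in the mitochondrial genome 4 were tested, and their listed values were unstable, mt-Co1 being at 5479 FPKM in sham replicate 1 and between 1.24 and 6.70 FPKM in 4 others, so they were not read further.

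The cytosolic ribosomal proteins and the respiratory chain also had mostly higher means in I/R. Of 81 cytosolic ribosomal protein genes 78 (96.3%) were higher, against 62.6% of all tested genes, and the median log2 fold change was 0.42. In 27 of them (33.3%) all I/R values lay above sham, against 10.6% of all tested genes. Of 78 nuclear-encoded subunits of oxidative phosphorylation 69 (88.5%) were higher, the median was 0.20, and 8 (10.3%) stood apart, a share near that of all genes. After median-ratio scaling the medians were 0.27 for the cytosolic ribosome, 0.18 for the mitochondrial ribosome and 0.06 for oxidative phosphorylation, and 14, 6 and 0 genes stood apart. Of all genes 7.35% then stood apart, and the 6 mitochondrial ribosomal genes were a similar share, 7.69%. Without sham replicate 3 the medians were 0.21, 0.15 and 0.20 in the same order, so the order of the mitochondrial ribosome and oxidative phosphorylation turned with that library. The libraries did not order the groups alike. In the FPKM as deposited, I/R replicate 6 was the highest library of the cytosolic ribosomal genes (median deviation 0.35). There the oxidative phosphorylation genes lay below their own means (-0.10) and the mitochondrial ribosomal genes at 0.14. After median-ratio scaling these deviations were 0.17, -0.27 and -0.02 in the same order. I/R replicate 7 was then the highest library of the cytosolic ribosomal genes (0.27). The difference between these lists was not tested.

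RNA levels of cell type markers also differed between the libraries, and in bulk tissue fewer cells of a type and less RNA per cell cannot be told apart. The 13 proliferation markers were all higher in I/R, against 62.6% of all tested genes, with a median log2 fold change of 0.52. Of them 8 (61.5%) stood apart, against 10.6% of all tested genes. After median-ratio scaling their median was 0.38 and 7 stood apart, where 7.35% of all genes did. Without sham replicate 3 their median was 0.33 and 12 were higher. Their summed level was 103.8 to 196.6 FPKM in sham, lowest in sham replicate 3, and 234.7 to 260.7 FPKM in I/R. The 7 goblet cell markers were all lower (median -0.92, summed level 2496 to 4754 FPKM over sham and 1793 to 3238 FPKM over I/R libraries). Of 6 neutrophil markers 5 were tested, and 4 of these were higher (summed level 1.56 to 3.50 FPKM over sham and 4.61 to 36.0 FPKM over I/R libraries). S100a8 was listed at 0 in every sham library. The sham means of S100a8, Ly6g and Csf3r were 0, 0.0192 and 0.316 FPKM. A listed transcript has a mean of at least 0.5 FPKM in a group, so these genes could be listed only through I/R. Their direction was therefore fixed by the listing and is not a result. All 4 tested red cell markers were higher, at a summed 18.8 to 92.1 FPKM in sham and 62.9 to 185.3 FPKM in I/R, and 0 stood apart. Their median log2 fold change was 1.14. It became 1.00 after median-ratio scaling and 0.55 without sham replicate 3, the library with the lowest sum. Enterocyte markers were abundant in every library (summed level 11465 to 21559 FPKM over sham and 9997 to 17383 FPKM over I/R libraries). Of these 12 markers 8 were lower in I/R and 4 higher, with a median log2 fold change of -0.21. That median became -0.36 after median-ratio scaling and -0.02 without sham replicate 3. The summed level of the 4 Paneth cell markers was 2331 FPKM in sham replicate 5 and 49.3 to 307.8 FPKM in the other libraries, and that of the 10 leukocyte markers was 35.2 to 256.1 FPKM over sham and 102.7 to 202.7 FPKM over I/R libraries. Smooth muscle markers ranged from 27.7 to 828.6 FPKM in I/R and from 125.7 to 610.0 FPKM in sham. None of these markers passed the adjusted threshold by limma, and their part in the levels of the mitochondrial ribosomal protein genes was not tested.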

How the data were processed

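RNA of 6 small intestine samples (3 sham, 3 I/R) was extracted with Trizol and sequenced from stranded, dUTP-based libraries. The authors deposited FPKM per transcript. Tools named in the submitters' processing notes are cutadapt, HISAT2 2.0.4 and StringTie, with the build mm10. Other versions and the use of strand were not given in the sources used here. Every listed transcript has a mean of at least 0.5 FPKM in a group. FPKM keep no read counts, so depth is unknown and limits on low values are not given. Summed FPKM was 315726 to 330814 per library, and 5.05% to 7.78% of values were 0, which can be failed estimates.

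Transcripts were matched to GENCODE M21 (19702 of 19763) and FPKM summed per gene. The 12006 genes averaging 0.5 FPKM or more were tested on log2(FPKM + 1) with limma 3.58.1 in R 4.3.3 (eBayes with trend, 2-sided, Benjamini-Hochberg). Log2 fold changes on this scale understate low genes. The procedure was tested on simulated data drawn from limma's own fitted variances. These held no shifts of whole libraries, so the test does not bear on such shifts. Alternatives were pseudocounts of 0.1 and 0.5, filters, median-ratio and quantile normalization, no trend, other transcript sums, no zeros and each library left out. The members and lists were chosen with earlier results of these data known. Named by rule were members past the adjusted threshold, up to 8 non-overlapping members in each direction by smallest p, the 3 most abundant, members listed at 0, the stalk, the tunnel exit, the other mitochondrial ribosomal proteins and up to 4 genes of each other list by smallest p. Other names were chosen after their values were seen.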

Additional observations from a re-analysis of the deposited data

How the results depend on the processing

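The median log2 fold change of the mitochondrial ribosomal protein genes stayed positive in 18 of 18 alternatives, and 0 members passed the adjusted threshold in the 17 alternatives in which that was counted. Members with all I/R values above sham went from 21 to 6 with median-ratio scaling, 12 with quantile normalization and 11 with median-ratio scaling without sham replicate 3, an alternative added after seeing the data. Members higher at an unadjusted p below 0.05 went from 7 to 1, 4 and 3 in the same order. Under the last, the median of the large subunit was 0.10. The median of all genes became -0.00238 after quantile normalization. With single libraries left out, members apart ranged from 23 to 44 higher and from 0 to 4 lower, those at an unadjusted p below 0.05 from 3 (without I/R replicate 7 or 9) to 15 (without sham replicate 5), and the median of the large subunit from 0.15 (without sham replicate 3) to 0.40. Fewer values per group make a separation easier for any gene. Of all genes 10.6% had all I/R values above sham in the main setting and 7.35% with median-ratio scaling. For the other alternatives that share is not given here, so their counts apart have no background to be read against. The same holds for the counts at an unadjusted p under every alternative.

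Of all genes, 2 were higher and 2 lower past the adjusted threshold. Higher genes numbered 0 with median-ratio scaling, with or without sham replicate 3, and 1 with quantile normalization or with the most abundant transcript alone. Lower genes numbered 1 without genes holding a 0, 1 with a minimum mean of 5 FPKM and 0 with median-ratio scaling without sham replicate 3. With single libraries left out they ranged from 0 to 4 higher and 0 to 5 lower. Of 321 values of the 19 named members, 7 changed sign. Mrpl10 was -0.11 with median-ratio scaling, -0.06 with quantile normalization, and from -0.46 (without I/R replicate 9) to 0.45 (without sham replicate 3) with single libraries left out, also below 0 without sham replicate 1 or 5. Mrpl24 was 0.69 with its most abundant transcript alone, and Mrpl54 ranged from -0.37 (without I/R replicate 7) to 0.21 (without I/R replicate 9). Other causes of these changes were not tested. No paired analysis was possible because the sham and I/R samples share no replicate number. FPKM give no depth, so the precision of low values cannot be stated.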
